A study of Nematostella vectensis with 18 samples.

Results

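The cells that 2 cnidocyte reporters left unmarked were compared with each other: Nep3-negative cells against Ncol3-negative cells, both obtained by fluorescence-activated sorting of tentacle cells from Nematostella vectensis, a sea anemone. The comparison took the 5 libraries labelled Nep3-negative and the 4 labelled Ncol3-negative, 9 of the 18 bulk RNA-seq libraries of the series. All entries of the count table were used, and 18976 of 24538 passed the filter on low counts and were tested. Nep3-negative cells came from the Nep3::mOrange line and Ncol3-negative cells from the Ncol3::mOrange line; both lines carry the fluorescent protein mOrange under the promoter named in the label. All polyps were adult and untreated, held at a temperature of 18 °C and a salinity of 16 permil. The positive cells of the same sorts (5 Nep3-positive and 4 Ncol3-positive libraries) were used to ask which differences recur between the lines in other libraries. Each fraction exists in its own line only, so reporter line and sort gate cannot be told apart in the comparison of the negative cells.

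Cnidocytes are the stinging cells of cnidarians, and each carries a capsule made in the Golgi that discharges a thread when triggered. Minicollagens such as Ncol3 build the capsule wall, while Nep3 is a protein found among the capsule contents. Sea anemones have several kinds of cnidocyte, among them nematocytes, whose capsules carry venom, and spirocytes, whose threads are adhesive. A negative fraction holds the remaining cells of the tentacle, such as epithelial cells, neurons, gland cells and muscle, together with any cnidocyte that the reporter did not mark. The gene IDs of the table are not paired with names in the sources used here (0 of 24537 matched the RefSeq table), so genes are described by ID, in groups, and by their levels in the 4 sorted populations. No cell type marker other than the reporter transcript could be looked up, and the labelled cell types were not checked against markers for that reason.

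The negative libraries held 7600919 to 14283046 counts in Nep3-negative and 5463324 to 13624512 counts in Ncol3-negative samples. Their totals did not differ detectably (exact permutation test, two-sided, p = 0.508, adjusted over 3 library measures 0.508). The closest pair of replicates, Nep3-negative 1 and 2, had a chi-square statistic of 6.91 per degree of freedom, well above sampling noise, so each library was counted as a sample. The first principal component of the 9 libraries held 37.0% of the variance and separated the 2 fractions. Nep3-negative libraries lay between 34.3 and 46.1 on it and Ncol3-negative libraries between -64.0 and -31.1.

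The reporter transcript mOrange2 was examined first. It stood at 37.1, 32.6, 46.5, 189 and 132 CPM (a gene's count scaled to a common library size, with TMM factors) in Nep3-negative replicates 1 to 5, against 248, 215, 380.2 and 353 CPM in the 4 Ncol3-negative libraries in the same order. Every Nep3-negative library was below every Ncol3-negative library, and Nep3-negative replicates 4 and 5 were above the other 3 replicates of their group. The mean was 87.5 ± 69.9 CPM in Nep3-negative (SD, n = 5) and 299 ± 80.1 CPM in Ncol3-negative cells (n = 4), and the log2 fold change was -1.77 (SE 0.44; adjusted p = 0.0163 by edgeR's quasi-likelihood test with the Benjamini-Hochberg method). The difference did not pass the threshold with Ncol3 replicates 1 and 2 alone (-1.44, edgeR adjusted p = 0.139) or with the negative libraries fitted alone (-1.81, edgeR adjusted p = 0.0964). Its size also moved with Nep3-negative replicates 4 and 5, and was -2.96 with Nep3-negative replicates 1 to 3 alone (edgeR adjusted p = 4.12e-07) and -2.76 with replicates 1 and 2 of all groups (edgeR adjusted p = 6.1e-10). In the positive cells mOrange2 averaged 712 ± 154 CPM in Nep3-positive (n = 5) and 939 ± 255 CPM in Ncol3-positive libraries (n = 4; edgeR adjusted p = 0.503). The fraction with more reporter transcript left in its negative gate was thus the Ncol3-negative one.

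The main question was which transcripts the Nep3-negative fraction holds beyond the Ncol3-negative one. Of 18976 genes, 1613 (8.5%) passed an adjusted p of 0.05, 972 (5.12%) higher and 641 (3.38%) lower in Nep3-negative cells. At an unadjusted p under 0.05 there were 4111. Most changes were moderate, with a median absolute log2 fold change of 1.21 among the genes called. A change of at least 2-fold was seen in 577 of those higher and 445 of those lower, and a change of at least 8-fold in 36 and 90. The CPM of the 2 fractions did not overlap for 853 of the 972 and 500 of the 641; over all genes tested, all Nep3-negative libraries lay above all Ncol3-negative ones for 1414 (7.45%) and below for 927 (4.89%).

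The balance of directions depended on the scaling. With library size alone, 600 genes were higher and 984 lower, so 37.9% of the calls were higher in place of 60.3%. That scaling placed the median log2 fold change over all genes at -0.21, and TMM placed it at 0.02. Of the 1613 genes, 1218 were also called with library size alone, all with the same sign. The count was 1023 without Ncol3-negative replicate 2, of which 991 were among the 1613 with the same sign.

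Genes called higher and lower were spread differently over abundance, which was not tested. Among the 108 genes with a mean over 1000 CPM in the negative libraries, 15 rose and 2 fell in Nep3-negative cells. Between 100 and 1000 CPM, 149 of 1327 rose and 31 fell. Between 1 and 10 CPM the order was turned round, with 241 of 7400 higher and 339 lower. The summed gain over the genes called higher was 107823 CPM and the summed loss over those called lower was 14396 CPM. CPM scaled with TMM factors do not add up to the same total in every library. The factors averaged 1.04 in Nep3-negative and 1.21 in Ncol3-negative libraries, which makes the totals of the former larger. The gap between gain and loss therefore depends on this scaling. Only 7 genes held 50% or more of the gain. NV2.18817 alone held 18.5% of it.

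NV2.18817 was chosen because earlier results had shown it to be the most abundant entry of many libraries. It was at 17871, 15627, 31216, 45424 and 33687 CPM in Nep3-negative replicates 1 to 5, against 5622, 4229, 11850 and 13417 CPM in the 4 Ncol3-negative libraries. No other gene was higher in any of the 5 Nep3-negative libraries, and among Ncol3-negative libraries its rank was between 1 and 10. The groups did not overlap, although Nep3-negative replicates 1 and 2 lay close to Ncol3-negative replicates 3 and 4. The log2 fold change was 1.71 (SE 0.45; edgeR adjusted p = 0.0217). The call depended on which replicates were set against each other, and replicates 1 and 2 were the lowest in both fractions. With matched replicate numbers, a choice made after seeing the data, it held. The change was 1.73 with replicates 1 and 2 of all groups (edgeR adjusted p = 5.02e-05) and 1.51 with replicates 3 to 5 of all groups (edgeR adjusted p = 0.00214). The numbers were not treated as a pairing, and why the call moved was not tested. The call was lost without Ncol3-negative replicate 1 (1.51, edgeR adjusted p = 0.0755) or 2 (1.45, adjusted p = 0.0812). It was also lost without Nep3-negative replicate 4 (1.48, edgeR adjusted p = 0.0814) or 5 (1.61, adjusted p = 0.0519). In positive cells the order was the opposite, with 5406 ± 1072 CPM in Nep3-positive (SD, n = 5) and 97412 ± 65559 CPM in Ncol3-positive libraries (n = 4), a log2 fold change of -4.17 (SE 0.47). As a share of the counts, without TMM factors, it took 0.457% to 0.727% in Nep3-positive and 3.35% to 9.29% in Ncol3-positive libraries. The TMM factors of Ncol3-positive libraries, 0.57 to 0.96, make its CPM there larger than that share.

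The genes were then sorted by what they did in the positive gate. The comparison of Nep3-positive with Ncol3-positive cells uses the other 9 libraries, so it shares no library with the comparison of the negative cells, although both share the reporter line. Positive and negative libraries of a line, as gates of the same sorts, may also share animals. The 2 comparisons may therefore not be independent. It called 3926 genes higher (20.7%) and 3128 lower (16.5%) in Nep3-positive cells. Of the 972 genes higher in Nep3-negative cells, 469 (48.3%) were lower in Nep3-positive than in Ncol3-positive cells, 328 (33.7%) were higher there too and 175 (18.0%) were not called. Of the 641 genes lower in Nep3-negative cells, 273 (42.6%) were lower in Nep3-positive cells as well, 63 (9.83%) were higher there and 305 (47.6%) were not called. The genes that the Nep3-negative fraction holds in excess were thus mostly of 2 kinds, those with opposite differences in the 2 gates and those that followed the reporter line in both.

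**Figure D1:**
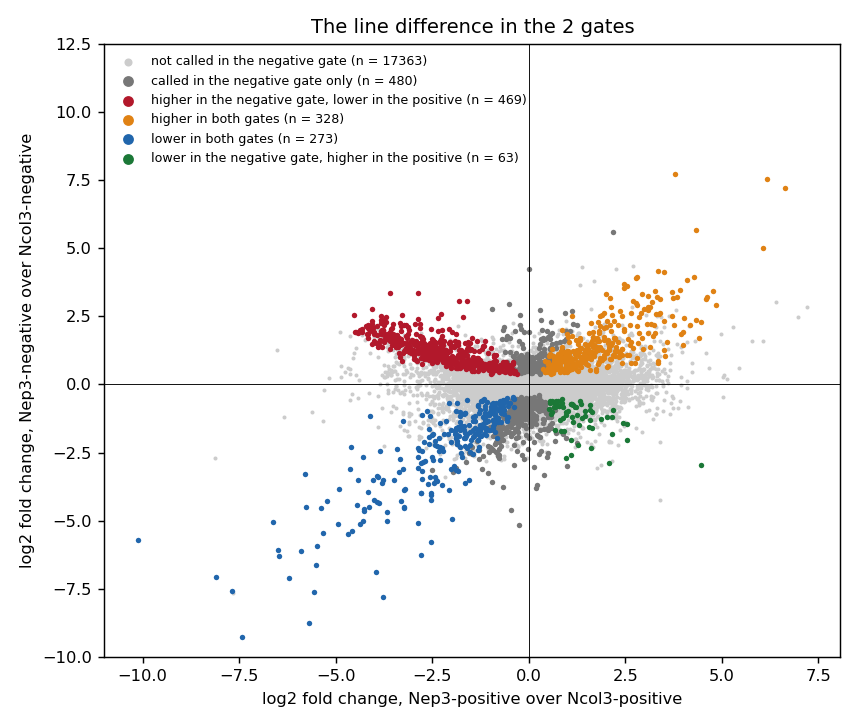
Log2 fold change of each gene between negative fractions (vertical axis, Nep3-negative over Ncol3-negative) against that between positive cells (horizontal axis, Nep3-positive over Ncol3-positive), coloured by the directions called at an adjusted p of 0.05. The 469 red points form a band at the upper left, while the 328 orange and 273 blue points run along the diagonal and reach the largest differences.

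The 469 genes with opposite differences were abundant. Their summed level was 103146 to 202232 CPM in Nep3-negative and 30482 to 74544 CPM in Ncol3-negative libraries, and 39566 to 46402 CPM in Nep3-positive and 223420 to 706176 CPM in Ncol3-positive libraries. The TMM factors ran from 0.57 to 0.96 in Ncol3-positive libraries, against 0.95 to 1.13 in Nep3-positive ones. The Ncol3-positive sums and their spread are therefore larger in CPM than as shares of the counts. Leaving out NV2.18817, the sums were 87519 to 168545 CPM in Nep3-negative and 26254 to 61127 CPM in Ncol3-negative libraries. These genes made up 88.0% of the summed gain of the Nep3-negative fraction. Their median log2 fold change was 1.21 in the negative gate and -2.34 in the positive gate, and only 4 of them differed 8-fold or more between the negative fractions. For 431 of the 469, the mean of Nep3-negative libraries lay between the means of the 2 Ncol3 populations, below Ncol3-positive and above Ncol3-negative. Both signs were required for membership, so these values describe the class and test nothing. In bulk samples, fewer cells of a type and less RNA per cell cannot be told apart.

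The number of genes with opposite differences was sensitive to single libraries. In both directions together it was 532, with 261 left without Ncol3-negative replicate 2 and 312 without replicate 1, of which 222 and 249 were higher in Nep3-negative cells. With library size alone the class had 348 members, and the reverse class grew to 245. The levels of the class also differed within each fraction. The sum was 66599 and 74544 CPM in Ncol3-negative replicates 3 and 4, against 32574 and 30482 CPM in replicates 1 and 2. In the other fraction it was 141125, 166476 and 202232 CPM in Nep3-negative replicates 3 to 5, against 116615 and 103146 CPM in replicates 1 and 2. With Ncol3 replicates 1 and 2 alone the class of genes higher in Nep3-negative and lower in Nep3-positive cells had 601 members, and with replicates 3 and 4 alone it had 250.

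NV2.11827 had the largest fold change of this class among genes with no overlap between the negative fractions and a mean of at least 10 CPM. That mean was required in the negative and in the positive libraries. It was at 69.1, 61.9, 80.1, 106 and 102 CPM in Nep3-negative replicates 1 to 5, against 7.06, 3.57, 19.6 and 19.9 CPM in Ncol3-negative replicates 1 to 4. All Nep3-negative libraries were more than 3-fold above the highest Ncol3-negative library. Its change on the log2 scale was 2.75 (SE 0.49; edgeR adjusted p = 0.00205). In positive cells it was at 16.1 ± 2.95 CPM in Nep3-positive (SD, n = 5) and 268 ± 165 CPM in Ncol3-positive libraries (n = 4). The order of its mean levels was thus Ncol3-positive, Nep3-negative, Nep3-positive and Ncol3-negative, and the 2 lowest groups overlapped. The line difference in the negative gate exceeded that in the positive gate by 6.81 on the log2 scale (SE 0.69), which the choice of a gene with opposite calls fixes in direction.

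The reverse class, lower in Nep3-negative and higher in Nep3-positive cells, had 63 genes of low abundance, which summed to 1187 to 1705 CPM in Nep3-negative and 2092 to 2508 CPM in Ncol3-negative libraries. NV2.2216 represents it by the same rule. Its level was 8.82, 4.95, 14.0, 13.5 and 16.6 CPM in Nep3-negative replicates 1 to 5, against 22.96, 23.8, 29.8 and 24.6 CPM in the 4 Ncol3-negative libraries in the same order. The groups were apart, with replicates 1 and 2 the lowest of the Nep3-negative libraries. The log2 fold change was -1.12 (SE 0.26; edgeR adjusted p = 0.0081). It averaged 164 ± 51.4 CPM in Nep3-positive (SD, n = 5) and 84.8 ± 6.62 CPM in Ncol3-positive libraries (n = 4); the difference between the gates, -2.07 (SE 0.36), is likewise set in direction by the choice.

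Genes that differed in the same direction in both gates carried most of the large changes. Of the 36 genes at least 8-fold higher in Nep3-negative cells, 30 were also higher in Nep3-positive cells, and of the 90 at least 8-fold lower, 77 were also lower in Nep3-positive cells. The 273 genes lower in both gates had a median log2 fold change of -1.82 in the negative and -1.74 in the positive gate. The 328 genes higher in both had medians of 1.19 and 1.60. A difference between the gates was detected for 21 of the 273 (7.69%) and 50 of the 328 (15.2%), against 4324 of all 18976 genes (22.8%; interaction, edgeR adjusted p under 0.05). For the others no such difference was detected, which does not show that the gates were equal. Calls of the same sign in both gates were required for membership, which makes such a difference less likely. The shares below that of all genes thus partly restate the choice. Over all genes tested, all 10 Nep3-line libraries lay below all 8 Ncol3-line libraries for 158 (0.833%) and above them for 188 (0.991%), and 136 and 153 of these were among the genes called in the same direction in both gates.

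Summed levels of the 2 classes differed in how they were ordered. The 328 genes higher in both gates summed to 11773 to 14391 CPM in Nep3-negative and 6446 to 7270 CPM in Ncol3-negative libraries, and to 18123 to 23812 CPM in Nep3-positive and 5925 to 6153 CPM in Ncol3-positive libraries. The 273 genes lower in both summed to 6323 to 8946 CPM in Nep3-negative and 14216 to 18489 CPM in Ncol3-negative libraries, and to 3047 to 4058 CPM in Nep3-positive and 7622 to 8587 CPM in Ncol3-positive libraries. The sums of the 328 genes were apart between the lines in all libraries, while those of the 273 genes overlapped between Nep3-negative and Ncol3-positive libraries and were lower in positive than in negative libraries of each line. The lower genes made up 64.4% of the summed loss of the Nep3-negative fraction, and the higher genes 6.38% of its gain. Both directions were required for membership here as well.

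The remaining genes were called in the negative gate and not in the positive one. The 175 higher in Nep3-negative cells had a median log2 fold change of 0.90 there and 0.09 between the positive cells, and the 305 lower had medians of -1.19 and -0.22. The interaction passed for 84 of the 175 (48%) and 120 of the 305 (39.3%), against 22.8% of all genes. Genes called in the negative gate only are more likely to pass by that choice. For the other genes of these classes a difference between the gates was not shown.

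Several of the genes that followed the line were close to absent in 1 line. Of the 77 genes that were at least 8-fold lower in Nep3-negative cells and lower in both gates, 51 were under 1 CPM in each of the 10 Nep3-line libraries. Of the 30 that were at least 8-fold higher and higher in both gates, 19 were under 1 CPM in each of the 8 Ncol3-line libraries. Over the whole classes these were 63 of the 273 genes lower in both gates and 27 of the 328 higher in both. The choice of 8-fold changes favours genes near the floor in 1 line, and the share over all genes tested was not counted. No gene was at or under 0.5 CPM in every library of a line and at 5 CPM or more in every library of the other (0 in either direction).

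NV2.17422 and NV2.10573 had the lowest fold changes under the naming rule. NV2.17422 was at 0.368, 0.806, 0.124, 0.0745 and 0.821 CPM in Nep3-negative replicates 1 to 5, which is 1 to 11 counts, against 28.7, 36.0, 90.2 and 96.5 CPM in Ncol3-negative replicates 1 to 4. Ncol3-negative replicates 3 and 4 were the highest of all 18 libraries. Its change on the log2 scale was -7.11 (SE 0.50; edgeR adjusted p = 4.43e-08). In positive cells the gene had 0 to 4 counts per Nep3-positive library, and stood at 8.73 ± 1.54 CPM in Ncol3-positive libraries (SD, n = 4).

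NV2.10573 was at 2.11, 1.497, 1.61, 0.521 and 1.72 CPM in Nep3-negative replicates 1 to 5, against 48.2, 50.4, 46.7 and 46.9 CPM in the 4 Ncol3-negative libraries in the same order. The Ncol3-negative values hardly varied. The log2 fold change was -5.02 (SE 0.25; edgeR adjusted p = 5.25e-12). It averaged 4.76 ± 1.22 CPM in Nep3-positive (SD, n = 5) and 61.0 ± 14.4 CPM in Ncol3-positive libraries (n = 4). The difference was larger in the negative than in the positive gate (interaction -1.36, SE 0.33, edgeR adjusted p = 0.00382).

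NV2.13682 was the next gene lower in both gates by the naming rule. It was at 1.01, 0.691, 0.744, 2.23 and 0.0746 CPM in Nep3-negative replicates 1 to 5, against 28.2, 33.1, 34.2 and 25.2 CPM in Ncol3-negative replicates 1 to 4. The groups were far apart, and the 5 Nep3-negative values rest on 1 to 30 counts each. Its change on the log2 scale was -4.93 (SE 0.37; edgeR adjusted p = 2.67e-08; -5.65 without Nep3-negative replicate 4), against -1.998 (SE 0.30) in the positive gate. There the means were 8.83 ± 1.58 CPM in Nep3-positive (SD, n = 5) and 35.1 ± 10.4 CPM in Ncol3-positive libraries (n = 4). The interaction was -2.93 (SE 0.48; edgeR adjusted p = 0.000104).

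NV2.21000 and NV2.20124 rose most by the naming rule, and both were higher in the Nep3 line in either gate. NV2.21000 was at 17.2, 10.1, 20.1, 19.4 and 18.7 CPM in Nep3-negative replicates 1 to 5, against 0.534, 0.127, 1.80 and 4.01 CPM in the 4 Ncol3-negative libraries in the same order. Its log2 fold change was 3.55 (SE 0.64; edgeR adjusted p = 0.00181), and it was 4.27 without Ncol3-negative replicate 4, the highest of that group. In positive cells it averaged 13.4 ± 2.55 CPM in Nep3-positive (SD, n = 5) and 2.55 ± 2.82 CPM in Ncol3-positive libraries (n = 4). The levels of the 2 Nep3 populations overlapped, as did those of the 2 Ncol3 populations.

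NV2.20124 was at 370.4, 379, 154, 175 and 201 CPM in Nep3-negative replicates 1 to 5, against 10.9, 7.003, 44.5 and 33.9 CPM in Ncol3-negative replicates 1 to 4. Replicates 1 and 2 stood apart from the rest in each fraction, higher in Nep3-negative and lower in Ncol3-negative cells. The log2 fold change was 3.41 (SE 0.74; edgeR adjusted p = 0.00931), and with Nep3-negative replicates 3 to 5 alone it was 2.84 and did not pass (edgeR adjusted p = 0.0557). It averaged 381 ± 111 CPM in Nep3-positive (SD, n = 5) and 29.3 ± 26.8 CPM in Ncol3-positive libraries (n = 4), a log2 fold change of 3.71 (SE 0.75).

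NV2.9305 was the next gene higher in both gates by the naming rule. It was at 15.6, 20.8, 21.2, 25.5 and 29.2 CPM in Nep3-negative replicates 1 to 5, against 2.73, 1.02, 2.92 and 2.41 CPM in the 4 Ncol3-negative libraries in the same order. The groups were far apart, and the log2 fold change was 3.25 (SE 0.25; edgeR adjusted p = 8.02e-09). In positive cells it was at 57.2 ± 8.19 CPM in Nep3-positive (SD, n = 5) and 6.72 ± 1.71 CPM in Ncol3-positive libraries (n = 4), a log2 fold change of 3.09 (SE 0.23). In both lines its level was higher in the positive than in the negative libraries, with no overlap.

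**Figure D2:**
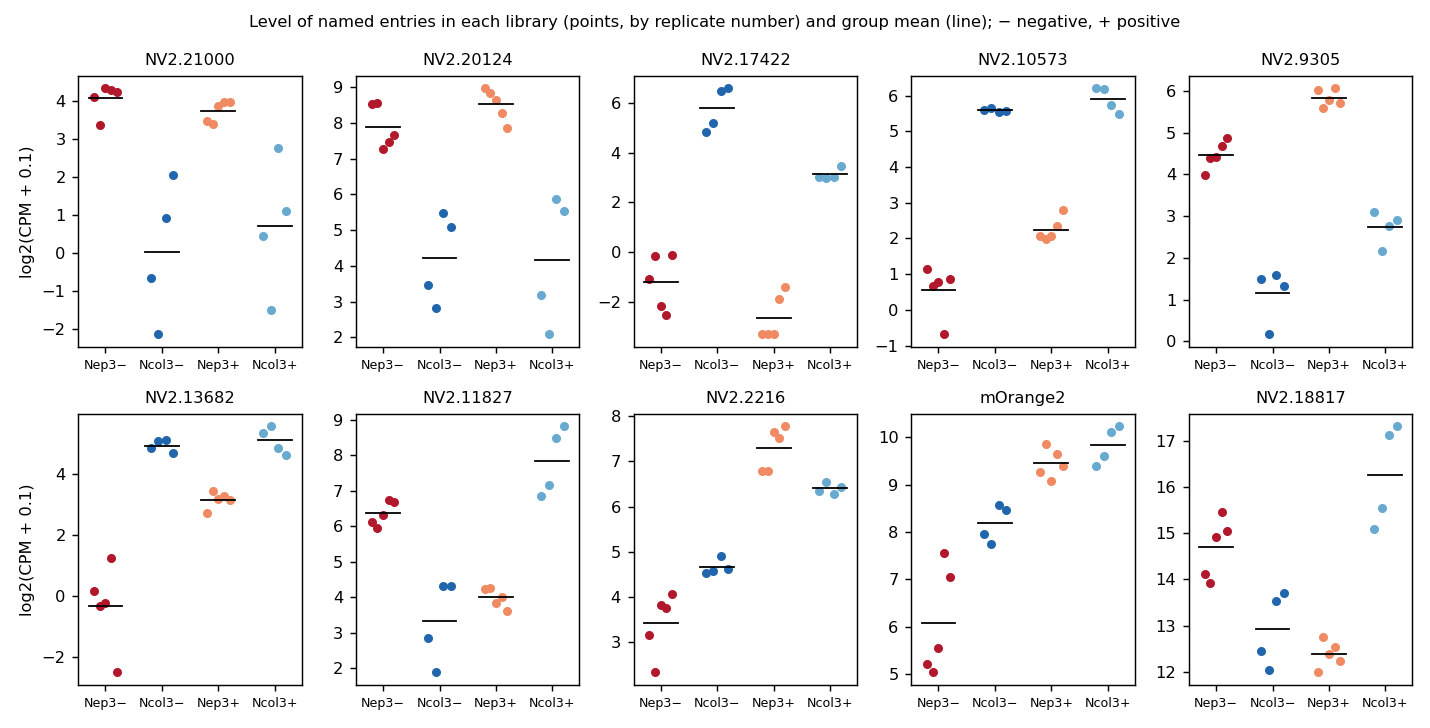
Level of the 8 genes that met the naming rule, of mOrange2 and of NV2.18817, as log2(CPM + 0.1) in every library of the 4 sorted populations (points, in order of replicate number) with the mean of the logs (line). NV2.17422, NV2.10573 and NV2.13682 were low in both Nep3 populations, while NV2.11827 and NV2.18817 were lower in Ncol3-negative than in Nep3-negative libraries and highest in Ncol3-positive ones.

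The share of genes called between the negative fractions was next read along the size of the difference between the positive cells. Among the 342 genes more than 8-fold lower in Nep3-positive than in Ncol3-positive cells, 132 (38.6%) were higher and 58 (17.0%) lower in Nep3-negative cells, with a median log2 fold change of 1.16. Over all genes, 5.12% were higher and 3.38% lower, with a median of 0.02. Among the 528 genes between 4-fold and 8-fold lower, 155 (29.4%) were higher and 55 (10.4%) lower, with a median of 0.58. Genes that differed less than 2-fold between the positive cells were seldom called, with 2.28% and 2.16% higher and 4.17% and 1.45% lower on either side of 0. At the other end, 51 of the 183 genes more than 8-fold higher in Nep3-positive cells (27.9%) were higher in Nep3-negative cells and 1 was lower (median 0.84). Genes that differed strongly between the positive cells, in either direction, were thus more often higher in the Nep3-negative fraction than genes that did not. Those at least 4-fold lower in Nep3-positive cells were also more often lower in Nep3-negative cells (17.0% and 10.4%, against 3.38% of all genes). These differences were not tested, and other scalings were not run for these bins.

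**Figure D3:**
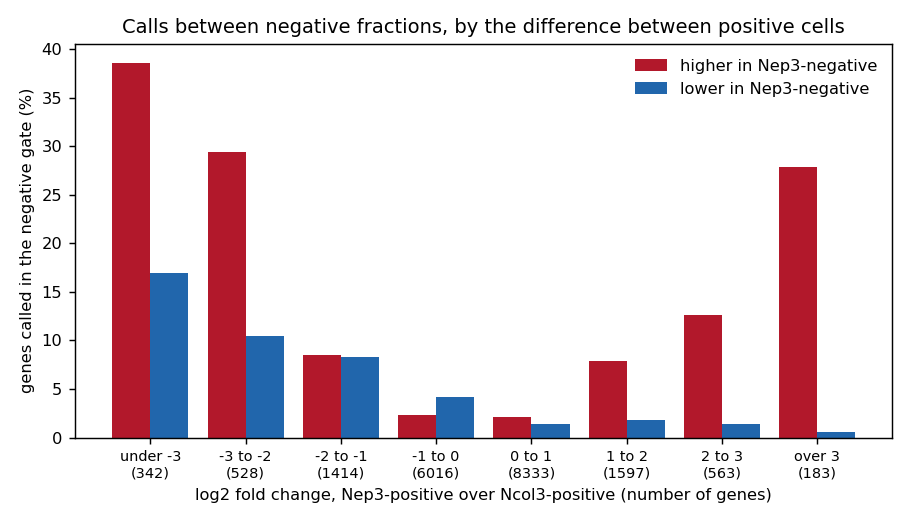
Share of genes called higher (red) or lower (blue) in Nep3-negative than in Ncol3-negative cells (vertical axis, percent), by the log2 fold change between Nep3-positive and Ncol3-positive cells (horizontal axis, with the number of genes in each bin). Calls of higher genes rise towards both ends, to 38.6% on the left and 27.9% on the right, while lower genes reach 17.0% on the left and 0.546% on the right.

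The 3128 genes called higher in Ncol3-positive than in Nep3-positive cells took 29.1%, 28.6%, 29.1%, 29.5% and 38.3% of the counts in Nep3-negative replicates 1 to 5, against 18.4%, 19.4%, 25.3% and 27.8% in the 4 Ncol3-negative libraries. The groups did not overlap, but the gap between Nep3-negative replicate 2 and Ncol3-negative replicate 4 was under 1 percentage point. Without NV2.18817 the ranges overlapped, at 26.3% to 36.2% in Nep3-negative and 17.9% to 26.7% in Ncol3-negative libraries. Of these genes 469 (14.99%) were called higher and 273 (8.73%) lower in Nep3-negative cells, and their median log2 fold change was 0.18.

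The 3926 genes called higher in Nep3-positive cells took 16.4% to 19.0% of the counts in Nep3-negative and 17.1% to 19.7% in Ncol3-negative libraries, and the ranges overlapped. Of them 328 (8.35%) were higher and 63 (1.60%) lower in Nep3-negative cells, with a median log2 fold change of 0.10. This balance turned round with library size alone, where 212 genes were higher and 245 lower in Nep3-negative cells among those called higher in Nep3-positive cells. Between the fractions, mOrange2 was lower where the share of Ncol3-positive genes was larger. Within the Ncol3-negative fraction, replicates 3 and 4 had more mOrange2 (380.2 and 353 CPM) and the larger shares (25.3% and 27.8%), and replicates 1 and 2 less of both (248 and 215 CPM, 18.4% and 19.4%). Within the Nep3-negative fraction, replicate 4 had the most mOrange2 (189 CPM) and a share of 29.5%, close to the 28.6% to 29.1% of replicates 1 to 3 (32.6 to 46.5 CPM), while replicate 5 had 132 CPM and the highest share, 38.3%.

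**Figure D4:**
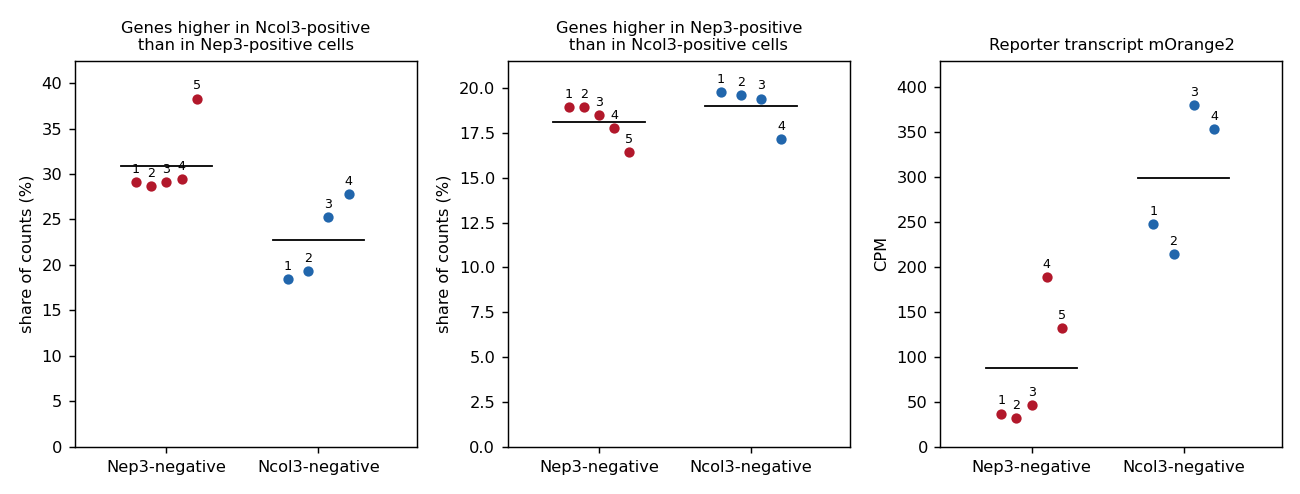
Share of counts in each negative library (points, numbered by replicate; line, group mean) held by genes called higher in Ncol3-positive than in Nep3-positive cells (left) and by genes called higher in Nep3-positive cells (middle), with mOrange2 in CPM (right). Nep3-negative libraries have 28.6% to 38.3% of their counts in the first set, against 18.4% to 27.8% in Ncol3-negative libraries, and the second set overlaps between fractions.

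Genes that a reporter sort itself selects were then followed into the negative fractions. A list drawn from positive against negative cells would share negative libraries with the present comparison, so lists and measurements were taken from different replicate numbers. From replicates 1 and 2 of all 4 populations, 1454 genes passed as higher in the positive cells of the Ncol3 sort and not as higher in the Nep3 sort (the Ncol3 list). Genes called lower in the positive cells of the Nep3 sort were allowed in it. A further 931 were higher in both sorts (the shared list), 2176 were higher in the Nep3 sort and not called higher in the Ncol3 sort (the Nep3 list), and 1236 were lower in positive cells of both (the shared-lower list). Nep3-negative replicates 3 to 5 were compared with Ncol3-negative replicates 3 and 4. Separate replicates remove noise shared by list and measurement, but not the effect of the choice itself. The Ncol3 list takes genes lower in Ncol3-negative than in Ncol3-positive cells and not called lower in Nep3-negative than in Nep3-positive cells. That choice favours higher levels in Nep3-negative cells, and the Nep3 list is drawn the opposite way. The counts below therefore describe the lists and test nothing.

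Of the 1434 genes of the Ncol3 list that could be tested, 283 (19.7%) were higher and 9 lower in Nep3-negative cells, with a median log2 fold change of 0.42. Over all 18431 genes of that fit, 559 (3.03%) were higher and 335 (1.82%) lower, with a median of 0.02. The list took 21.8%, 22.5% and 31.2% of the counts in Nep3-negative replicates 3 to 5, against 16.0% and 17.3% in Ncol3-negative replicates 3 and 4. The 2 fractions did not overlap, nor did they without NV2.18817, at 19.1% to 28.8% in Nep3-negative and 14.8% and 16.0% in Ncol3-negative libraries. For scale, the list took 9.96% to 11.7% in Nep3-positive replicates 3 to 5 and 53.9% and 55.2% in Ncol3-positive replicates 3 and 4. With the lists from replicates 3 to 5 and the measurement in negative replicates 1 and 2, 729 of 1661 genes (43.9%) were higher and 28 lower, with a median of 0.46. Over all genes of that fit, 10.2% were higher and 8.4% lower.

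The other 3 lists held no such excess of higher calls in both arrangements. Of 889 tested genes of the shared list, 40 (4.50%) were higher and 28 (3.15%) lower in Nep3-negative replicates 3 to 5 (median 0.08). In the other arrangement 52 of 662 (7.85%) were higher and 147 (22.2%) lower (median -0.31). Of 2024 genes of the Nep3 list, 34 (1.68%) were higher and 47 (2.32%) lower (median 0.02). In the other arrangement 87 of 2116 (4.11%) were higher and 354 (16.7%) lower (median -0.21). Of 1232 genes of the shared-lower list, 31 (2.52%) were higher and 46 (3.73%) lower (median -0.10). In the other arrangement 204 of 958 (21.3%) were higher and 74 (7.72%) lower (median 0.19). Over all genes, 3.03% were higher and 1.82% lower in the first arrangement (median 0.02), and 10.2% and 8.4% in the other (median -0.03). In the other arrangement the shared-lower list thus exceeded all genes in higher calls, and the shared and Nep3 lists did so in lower calls. The shared list took 2.81% to 3.39% of the counts in Nep3-negative replicates 3 to 5, against 3.98% and 3.87% in Ncol3-negative replicates 3 and 4. Replicates 1 and 2 gave 2.51% and 2.48% in Nep3-negative, against 3.47% and 3.17% in Ncol3-negative libraries. Its share was thus lower in Nep3-negative libraries in either arrangement, without overlap, while mOrange2 was also lower there.

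The number of genes of the Ncol3 list called higher depended on both Ncol3-negative libraries of the measurement. It was 35 (2.43%, against 0.531% of all genes in that fit) without Ncol3-negative replicate 3 and 64 (4.44%, against 0.807%) without replicate 4, which leave 1 Ncol3-negative library that is assumed to vary like the others. Without single Nep3-negative libraries it was 226 to 376. Without Nep3-negative replicate 5, 376 (26.4%) were higher and 82 (5.76%) lower, against 6.95% and 6.28% of all genes. The median of the list lay between 0.27 and 0.47 when any of the 5 libraries was left out, and that of all genes between -0.01 and 0.05. With library size alone, 190 genes of the list were higher and 19 lower. For the shared list the same setting gave 22 higher and 34 lower, so its direction turned with the scaling. The Nep3 list then had 28 higher and 146 lower, and the shared-lower list 24 higher and 165 lower. Their near balance in replicates 3 to 5 thus also depended on the scaling. Calls over all genes were not counted for these libraries with library size alone, so a shift of the lists cannot be told from one of all genes. In the comparison of all 9 negative libraries that scaling placed the median over all genes at -0.21.

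**Figure D5:**
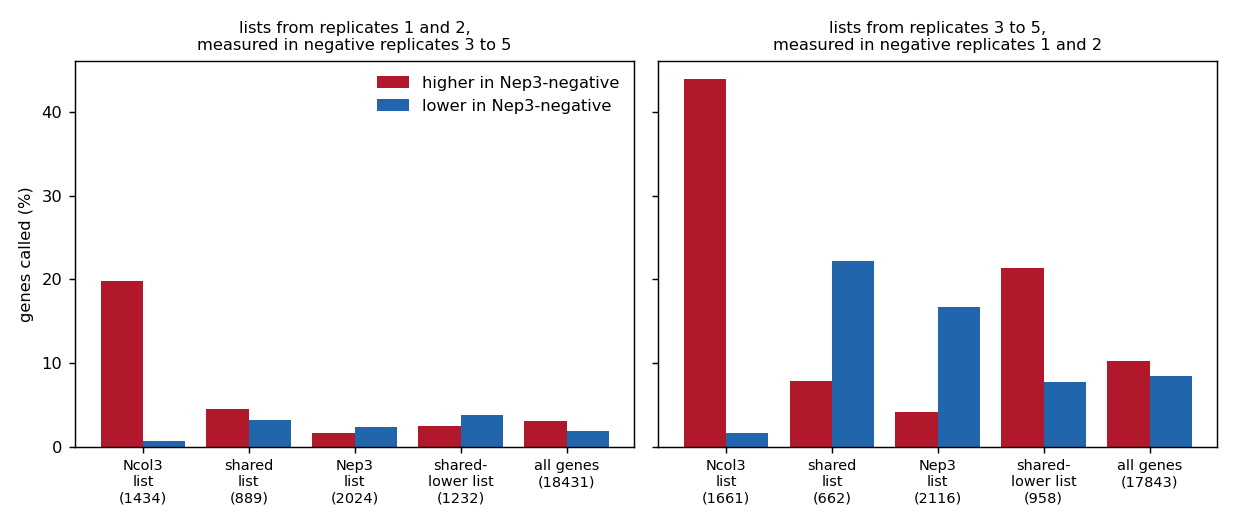
Share of tested genes of each list called higher (red) or lower (blue) in Nep3-negative than in Ncol3-negative cells (vertical axis, percent; number of genes in parentheses), for lists and measurements taken from different replicates. The Ncol3 list has 19.7% and 43.9% of its genes higher, against 3.03% and 10.2% of all genes, and the shared and shared-lower lists turn their balance between the panels.

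The make-up of the libraries differed along with these genes. The 20 highest genes of a library held 14.96%, 14.5%, 16.4%, 17.7% and 19.2% of the counts in Nep3-negative replicates 1 to 5, against 11.7%, 11.2%, 12.9% and 13.2% in the 4 Ncol3-negative libraries. The groups did not overlap, and the means differed by 4.29 percentage points (exact permutation test, two-sided, p = 0.0159, the smallest that 5 against 4 libraries allow; adjusted 0.0238). Genes at 1 CPM or more numbered 17087 ± 252 per library in Nep3-negative (SD, n = 5) and 17932 ± 344 per library in Ncol3-negative samples (n = 4). The difference of -844 genes had the same exact permutation p of 0.0159 (adjusted 0.0238). Counting genes with at least 1 count after thinning all libraries to equal depth, it was -553 genes (exact permutation p = 0.0317). The TMM factors ran from 0.94 to 1.14 in Nep3-negative and from 1.14 to 1.29 in Ncol3-negative libraries, so scaling and fraction moved together, and the part of this in the calls was not tested beyond the other scalings.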

How the data were processed

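Bulk RNA-seq counts per gene were analysed for 18 libraries. The authors deposited 1 table of raw counts with no normalization; whole numbers and unequal totals across libraries identify the unit. Trimmomatic, STAR 2.7.10a and featureCounts 2.0.1 are named in the submitters' processing notes. The genome build, annotation, strand setting and treatment of shared reads are not given in the sources used here, so overlapping genes and near-identical copies are uncertain. RNA was selected for poly(A) and made into directional libraries, per the labels.

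Groups and replicate numbers came from the titles. The design text gives 4 replicates per condition, the titles list 5 in the Nep3 line, and the titles were followed. The design text calls the replicates biological but does not say that they came from separate animals or sorts, so p-values measure the spread between these libraries, which may be partly technical.

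In edgeR 4.0.16 (R 4.3.3), filterByExpr kept 18976 genes, library sizes were TMM-scaled, and all 18 libraries entered 1 robust quasi-likelihood fit with 4 group means. Tests were two-sided with Benjamini-Hochberg adjustment over all genes at 0.05. Lists and their measurement were fitted in separate models on different replicates. The script was tested on simulated data. Principal components used log2 CPM with a prior count of 2. Thinned counts, DESeq2 1.42.0, limma 3.58.1 and other scalings, filters and subsets of libraries were alternatives.

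Named genes had an adjusted p under 0.05, a mean of at least 10 CPM over the negative libraries and no overlap. The 2 highest and 2 lowest fold changes were taken, then 1 further gene for each combination of directions in the 2 gates. For the latter a mean of at least 10 CPM was also required in the positive libraries. The comparison, its lists, NV2.18817 and mOrange2 were chosen with earlier results of these data known.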

Additional observations from a re-analysis of the deposited data

Results flagged for a closer look

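Among the shares and levels tested for a library far from the others of its group (30 tests, of which chance flags about 1 in 20), 2 stood out. Nep3-negative replicate 5 had 38.3% of its counts in genes called higher in Ncol3-positive than in Nep3-positive cells, the highest of 5 libraries. Ncol3-negative replicate 4 had 17.1% of its counts in genes called higher in Nep3-positive cells, the lowest of 4.

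For 5 of the named entries the difference between the lines was not the same in the 2 gates (interaction, negative minus positive gate). The interaction was 6.81 for NV2.11827 and 5.88 for NV2.18817, which were higher in Nep3-negative than in Ncol3-negative cells and lower in Nep3-positive than in Ncol3-positive cells. It was -2.07 for NV2.2216, which went the opposite way in both gates. NV2.11827 and NV2.2216 were chosen for opposite calls, where the interaction passed for all 469 and all 63 genes, so their values restate that choice. For NV2.10573 it was -1.36 and for NV2.13682 it was -2.93, and both were lower in the Nep3 line in either gate (edgeR adjusted p = 0.00382 and 0.000104).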

How the results depend on the processing

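Of the 8 genes that met the naming rule, none changed sign in 34 alternatives each; NV2.20124 lost its call in 1 and NV2.2216 in 1 (-1.04 with Ncol3 replicates 1 and 2 alone, edgeR adjusted p = 0.0561). The values of these 8 genes moved more than their calls, with NV2.21000 between 2.62 and 5.37 and NV2.20124 between 2.14 and 5.32. Unadjusted, the tests of the 20 highest genes and of genes detected passed without any single library (exact permutation p of at most 0.0357). Adjusted over the 3 library measures, neither passed without any one Ncol3-negative library (0.0536), where the smallest p allowed is 0.0357 before adjustment. The subsets of Nep3-negative libraries and of replicates across groups were chosen after seeing the data. The causes of the shifts below were not tested.

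The count of 1613 genes became 1002 with Ncol3 replicates 3 and 4 only, 1024 with Nep3-negative replicates 1 and 2 only and 2877 with replicates 1 and 2 of all groups, and 1023 to 1698 without single libraries. Genes called in the same direction in both gates (601) numbered 398 with Ncol3 replicates 3 and 4 only and 398 with replicates 3 to 5 of all groups. Genes with opposite directions (532) numbered 289, 234, 272 and 882 with Ncol3 replicates 3 and 4, Nep3-negative replicates 1 and 2, Nep3-negative replicates 1 to 3, and replicates 1 and 2 of all groups only, and 261 to 554 without single libraries. Interaction calls (4324) numbered 8744 with library size alone and 2681 with Ncol3 replicates 1 and 2 only.

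mOrange2 was at -1.81 with the gates fitted separately and -1.44 with Ncol3 replicates 1 and 2 only, where its call was lost. It kept its call elsewhere, and ranged up in size to -3.11 with Nep3-negative replicates 1 and 2 only (edgeR adjusted p = 4.5e-06). NV2.18817 was at 1.16 with Ncol3 replicates 3 and 4 (edgeR adjusted p = 0.0735), 0.93 with Nep3-negative replicates 1 and 2 (edgeR adjusted p = 0.423) and 1.29 with Nep3-negative replicates 1 to 3 only (edgeR adjusted p = 0.171), and at 1.45 to 1.99 without single libraries. These subsets set some replicate numbers of 1 fraction against all of the other. With matched numbers, chosen after seeing the data, NV2.18817 was at 1.73 and 1.51 and passed. The numbers were not treated as a pairing, so this does not tell why the call was lost in the other subsets.

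For genes of the lists called in either direction (for the Ncol3 list, called higher), library size alone gave 174 in the Nep3 list (146 of them lower; 81 with TMM) and 189 in the shared-lower list (165 lower; 77 with TMM). Lists from replicates 3 to 5 gave 729 in the Ncol3 list (283), 199 in the shared list (68), 441 in the Nep3 list and 278 in the shared-lower list. Without single libraries the ranges were 35 to 376, 18 to 187, 29 to 243 and 17 to 199 in that order of lists.

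With the replicate number as a block (replicate block), 1836 genes were called, 1468 of them among the 1613, and NV2.18817 was at 1.74 (edgeR adjusted p = 0.00106) and mOrange2 at -2.10 (edgeR adjusted p = 0.00185). Deviations of same-numbered negative libraries correlated at -0.08 to 0.21, and 2 of 8 libraries correlated best with their own number, so the numbers were not treated as a pairing. That check set Nep3-negative against Ncol3-negative libraries only. Positive and negative libraries of the same number within a line were not checked for a pairing, and the main fit has no term for one.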
